A study of Homo sapiens with 2 samples.

Results

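The genes described here are the 10 core regulators of the G1 phase and of entry into S phase: the D-type cyclins CCND1, CCND2 and CCND3, the E-type cyclin CCNE1, the cyclin-dependent kinases CDK2, CDK4 and CDK6, the kinase inhibitor CDKN1B, the retinoblastoma gene RB1 and the transcription factor E2F1. They were chosen by name, with earlier results of these data known, and are 10 of the 54261 gene symbols counted, all of them among the 12620 that passed a minimum level. The cells were RKO, an established human colon carcinoma line, given either si-NC, a negative control siRNA, or si-SRSF2, which targets the splicing factor SRSF2, 2 days before RNA was collected. Each group was 1 poly(A) RNA-seq library of transiently transfected cells, with 1 siRNA duplex in 1 line, so every value below describes these 2 libraries and no difference has a replicate check. The comparison addresses whether the RNAs of the G1 regulators differ where SRSF2 is depleted, a question raised by the cell cycle work of the same study, which was done on stable lines carrying shRNAs.

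In G1, D-type cyclins bind CDK4 or CDK6, and these complexes phosphorylate RB1. RB1 without phosphate holds E2F factors on their target genes and keeps those genes low, and its phosphorylation releases them. E2F then drives genes of DNA replication together with CCNE1, whose product activates CDK2 and completes the phosphorylation of RB1, while CDKN1B (p27) binds and inhibits cyclin E-CDK2. D-type cyclins are short-lived proteins whose RNAs follow growth factor signals, and much of the control of CDKN1B acts on the protein.

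Of the 10 genes, 9 had a lower scaled level in the si-SRSF2 library and 1, CDKN1B, a higher one, while 6790 of the 12620 genes tested had a lower level. CCND2 was furthest from its control level, at 68.2% of si-NC, followed by RB1 at 77.4%, CCND1 at 80.3%, CDK2 at 81.6% and CDK6 at 83.4%. CDK4 stood at 91.3%. CCND3, CCNE1, E2F1 and CDKN1B differed by less than their counting error. None of the 10 was 2-fold lower or higher, which held for 0.499% and 0.848% of the 12620 genes tested in the respective direction.

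Levels are given as CPM, counts relative to a library size that edgeR's TMM method has scaled. A difference is given as the log2 of the si-SRSF2 level over the si-NC level, after adding 0.5 CPM to each. The interval given with a ratio is the 95% Clopper-Pearson interval of the counts, taken without the added 0.5 CPM. It covers counting error only and leaves out how far separate transfections vary, which is not known. Genes were tested, in the sense of entering these counts, where their mean was at least 1 CPM. With 1 library per group there was no test across genes and no p-value.

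The targeted gene was examined first. SRSF2 had 1964 counts with si-NC and 713 with si-SRSF2, or 98.5 and 49.1 CPM, so 49.9% of the control level was left. The libraries held 19931360 (si-NC) and 14512802 (si-SRSF2) counts, and a gene with 0 counts could lie as high as 3 counts, or 0.151 and 0.207 CPM. Mitochondrial genes took 4.45% and 4.82% of the counts. Of 7 epithelial markers, KRT8, KRT18, EPCAM and CDX2 were above 1 CPM on average, while KRT19, CDH1 and VIL1 had at most 10 counts in either library. KRT8 was the only epithelial marker whose interval left 0, with a log2 ratio of 0.62 (0.47 to 0.80), and its part in the results below was not tested. All 7 markers of fibroblasts, endothelium and leukocytes were under 1 CPM, and summed to 1.61 CPM with si-NC and 1.86 CPM with si-SRSF2, and PECAM1 and CD3E were at 0 in both. In bulk RNA, fewer cells in a phase of the cycle and less RNA per cell cannot be told apart, and the siRNA and the culture it was used in cannot be told apart either.

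The siRNA sequences are shown first because a short match of an siRNA to a member would touch the reading of that member's level. The sense strand is written as the study lists it, with 2 T overhang bases, and the guide, which pairs with the target RNA, was derived from the 19 paired bases with its seed (bases 2 to 8) in capitals.

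si-SRSF2 sense strand: uccaaauccaggucgcgautt
si-SRSF2 guide: aUCGCGACcuggauuugga
si-NC strand as listed: uucuucgaacgugucacgutt

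All 19 paired bases of si-SRSF2 were found in the canonical transcript of SRSF2 and in no other canonical transcript searched, those of the 10 genes included. The 7-base site of the guide's seed, GTCGCGA, was in the 3' UTR of 0 of the 10 genes, and 0.259% of the 10425 genes tested that had a 3' UTR held it. The site of the sense strand's seed, GATTTGG, was found once in CDK4 and once in CDK6, whose 3' UTR is 10219 bases long against a median of 1376, and was held by 14.8% of the genes. For si-NC, the site of the listed strand's seed, TCGAAGA, was found once in E2F1 and in 1.66% of the genes, and that of the opposite strand's seed, TGTCACG, in 0 of the 10 and in 3.08% of the genes. A match is a description of the sequence, and its part in the levels of CDK4, CDK6 and E2F1 was not tested.

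By the counting interval, 6 of the 10 genes lay wholly below 0 (CCND1, CCND2, CDK2, CDK4, CDK6 and RB1), where 26.7% of all genes tested did. None lay wholly above 0, where 21.0% of all genes tested did. Narrow intervals go with high counts, and the 10 genes were abundant. Among the 5990 genes at least as abundant as the least abundant of them, CCNE1, at a mean of 36.2 CPM, 34.5% were wholly below 0 and 25.4% wholly above. Of the same 5990 genes, 3 were at least 2-fold lower and 7 at least 2-fold higher. This comparison was added after the values had been seen. The median log2 ratio of the 10 genes was -0.20, and that of all genes tested was -0.02.

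**Figure D1:**
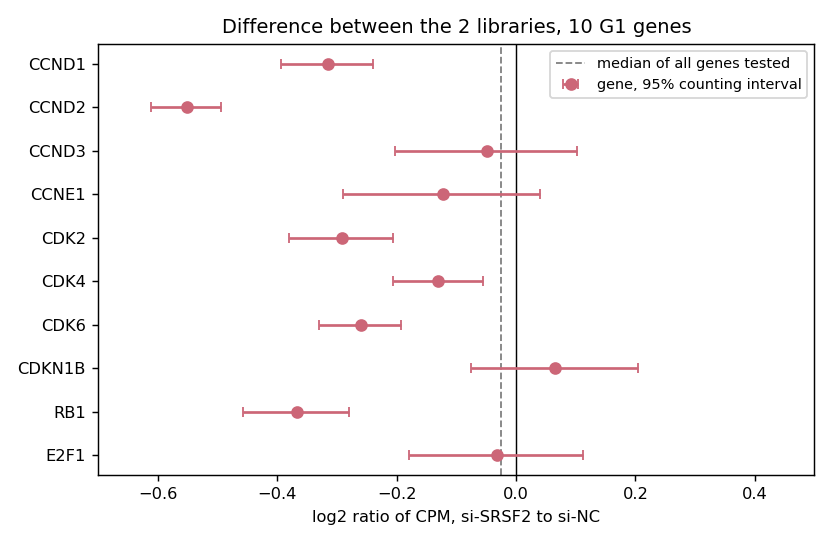
Log2 of CPM with si-SRSF2 over CPM with si-NC, of the 10 G1 genes (x axis), 1 row per gene, with points for the ratio and bars for the 95% counting interval, 1 library per group; the dashed line is the median of all genes tested, -0.02. The bars of CCND1, CCND2, CDK2, CDK4, CDK6 and RB1 lie left of 0, and those of CCND3, CCNE1, CDKN1B and E2F1 cross it.

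The D-type cyclins are the part of the pathway that responds to growth signals. CCND2 (ENSG00000118971.9) is on the plus strand of chromosome 12 (GRCh38, 4269771 to 4305353). It had 7070 counts with si-NC and 3509 with si-SRSF2, which scaled to 355 and 242 CPM. The log2 ratio was -0.55 (-0.61 to -0.49), and 4.06% of the genes tested had a lower one. CCND2 was thus the most abundant of the 10 in reads and also the one furthest below its control level.

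CCND1 (ENSG00000110092.4), on chromosome 11 from 69641156 to 69654474 on the plus strand, encodes cyclin D1, known as a target of Wnt signalling. It was read 3724 and 2178 times in the si-NC and si-SRSF2 library, or at 187 and 150 CPM. The log2 ratio was -0.32 (-0.39 to -0.24), with 13.8% of the genes tested lower. Its interval did not overlap that of CCND2.

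CCND3 (ENSG00000112576.13), on chromosome 6 from 41934934 to 42050357 on the minus strand, had 853 counts with si-NC and 600 with si-SRSF2, which scaled to 42.8 and 41.3 CPM. This gave a log2 ratio of -0.05 (-0.20 to 0.10). A difference was not detectable at this depth, and the interval still holds levels from 0.20 lower to 0.10 higher on the log2 scale.

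The cyclins were also compared with each other inside each library, which does not depend on how the libraries are scaled. There were 4.37 reads of CCND1 per read of CCND3 in si-NC and 3.63 in si-SRSF2. The ratio of these ratios was 0.831 (95% exact interval of the odds ratio 0.738 to 0.937). CCND3 gained on CCND2 most, with a ratio of 1.42 (1.26 to 1.59), and CCND1 gained on CCND2 by 1.18 (1.10 to 1.26). All 3 pairs therefore differed between the libraries by more than counting error. These are 3 of 13 pairs of genes compared in this way.

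The summed pool of D-type cyclin RNAs was lower with si-SRSF2, at 433 CPM against 584 CPM with si-NC, a log2 ratio of -0.43 (-0.48 to -0.39). Of its counts, CCND2 made up 60.7% (95% Clopper-Pearson interval 59.8% to 61.6%) in si-NC and 55.8% (54.6% to 57.0%) in si-SRSF2. CCND1 made up 32.0% (31.1% to 32.8%) and 34.6% (33.5% to 35.8%). CCND3 made up 7.32% (6.86% to 7.81%) and 9.54% (8.83% to 10.3%). The share of CCND2 was lower, and those of the other cyclins higher, in the si-SRSF2 library, with no overlap of intervals.

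A longer transcript gives more reads, and the canonical transcript has 4238 bases for CCND1, 6493 for CCND2 and 2026 for CCND3. On CPM per kb of transcript, CCND2 made up 45.6% of the pool in si-NC and 40.0% in si-SRSF2, CCND1 36.8% and 38.1%, and CCND3 17.6% and 21.9%. Per length, CCND2 was still the largest component in both libraries, but by only 37.2 against 35.4 CPM per kb for CCND1 in si-SRSF2. Counts per gene do not show which transcript or 3' end the cells used, so the per-length values rest on the canonical lengths.

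**Figure D2:**
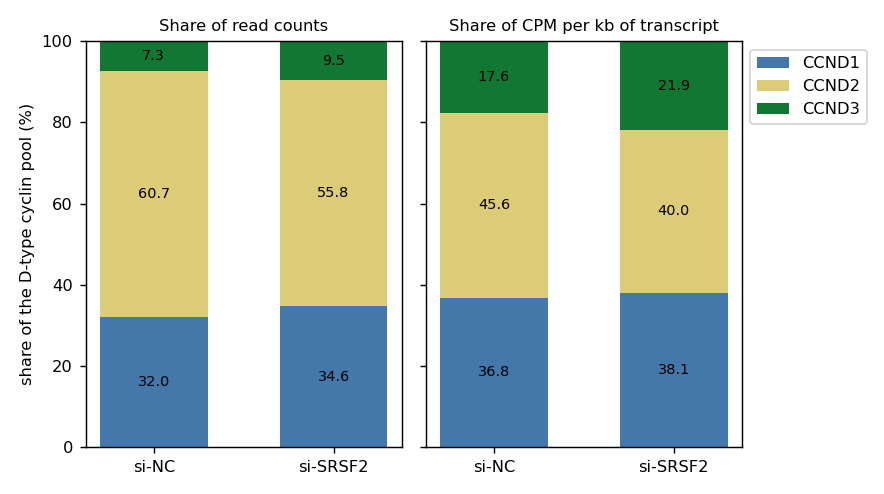
Share of each gene in the D-type cyclin pool (y axis, %), in the si-NC and si-SRSF2 library, as a share of read counts (left) and of CPM per kb of canonical transcript (right). CCND2 goes from 60.7% to 55.8% of the counts, and from 45.6% to 40.0% per length.

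The partners of cyclin D are CDK4 and CDK6, which phosphorylate RB1. CDK6 (ENSG00000105810.10, chromosome 7 from 92604921 to 92836573, minus strand) had 4579 counts with si-NC and 2782 with si-SRSF2, which scaled to 230 and 192 CPM. The log2 ratio was -0.26 (-0.33 to -0.19). CDK4 (ENSG00000135446.17, chromosome 12 from 57747727 to 57756013, minus strand) had 3548 and 2360 counts, or 178 and 163 CPM. Its log2 ratio was -0.13 (-0.21 to -0.06), closer to 0 than that of CDK6. The reads of CDK6 per read of CDK4 went from 1.29 to 1.18, a ratio of 0.913 (0.851 to 0.980).

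Between CCND1 and CDK6, there were 0.813 reads of CCND1 per read of CDK6 in si-NC and 0.783 in si-SRSF2. The ratio of 0.963 had an interval of 0.896 to 1.03, so a difference was not detectable at this depth. Against CDK4, CCND1 stood lower in si-SRSF2, at a ratio of 0.879 (0.816 to 0.948). The order of the kinases depends on length: CDK6 had more reads than CDK4, but its canonical transcript has 11663 bases against 1865, so that per kb CDK4 reached 95.5 CPM in si-NC and CDK6 19.7. CDK4 was the highest of the 10 genes on that scale in both libraries, with the canonical lengths taken as given.

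CDK4 shares its locus with genes on the other strand. TSPAN31, which overlaps CDK4 in the annotation, had 536 counts with si-NC and 490 with si-SRSF2, a log2 ratio of 0.32 (0.15 to 0.51), opposite in sign to CDK4. MARCH9, which also overlaps it, had 563 and 411 counts, a log2 ratio of 0.00 (-0.18 to 0.19). The library kit keeps the strand, but the strand setting of the counting is not given in the sources used here. CCND1 overlaps ORAOV1 on the other strand, which had 194 and 161 counts, CDK2 overlaps PMEL, with 33 and 28, and CDKN1B overlaps GPR19, with 66 and 34. Each of these genes had fewer reads than the member it overlaps.

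CDK2, activated by cyclin E, carries the cell into S phase. CDK2 (ENSG00000123374.11, chromosome 12 from 55966781 to 55972789, plus strand) had 2830 counts with si-NC and 1682 with si-SRSF2, which scaled to 142 and 116 CPM. The log2 ratio was -0.29 (-0.38 to -0.21), and 15.4% of the genes tested were lower. Its activating cyclin, CCNE1 (ENSG00000105173.14, chromosome 19 from 29811991 to 29824312, plus strand), had 753 and 503 counts, or 37.8 and 34.7 CPM. The log2 ratio of CCNE1, -0.12 (-0.29 to 0.04), did not leave 0. The reads of CCNE1 per read of CDK2 were 0.266 with si-NC and 0.299 with si-SRSF2, a ratio of 1.12 (0.987 to 1.28) that did not leave 1.

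CCNE2, the other E-type cyclin, gave a different picture. It had 1266 counts with si-NC and 693 with si-SRSF2, a log2 ratio of -0.41 (-0.55 to -0.28). The count ratio of CCNE1 to CCNE2 was 1.22 (1.05 to 1.42) times as high in si-SRSF2 as in si-NC, so the E-type cyclins differed from each other by more than counting error.

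CDKN1B (ENSG00000111276.12, chromosome 12 from 12685498 to 12722369, plus strand), the p27 inhibitor of CDK2, was the only one of the 10 with a higher level in si-SRSF2. It had 966 counts with si-NC and 736 with si-SRSF2, which scaled to 48.5 and 50.7 CPM. The log2 ratio, 0.06 (-0.08 to 0.21), did not leave 0. Set against its target, however, there were 0.341 reads of CDKN1B per read of CDK2 with si-NC and 0.438 with si-SRSF2, a ratio of 1.28 (1.14 to 1.44). Most of that difference lies in the reads of CDK2. CDKN1A (p21), the related inhibitor that p53 induces, had 3143 and 2661 counts and a log2 ratio of 0.22 (0.14 to 0.29). The count ratio of CDKN1B to CDKN1A was 0.900 (0.806 to 1.005) times that of si-NC, an interval that did not leave 1.

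RB1 (ENSG00000139687.16, chromosome 13 from 48303744 to 48599436, plus strand), the pocket protein that restrains E2F, was among the lower genes. It had 2878 counts with si-NC and 1623 with si-SRSF2, which scaled to 144 and 112 CPM. This gave a log2 ratio of -0.37 (-0.46 to -0.28), and 10.5% of the genes tested were lower. Its relatives differed from it: RBL2 (p130) had 2686 and 1971 counts, a log2 ratio of 0.01 (-0.07 to 0.10), and RBL1 (p107) had 751 and 502, a log2 ratio of -0.12 (-0.29 to 0.04). The count ratio of RB1 to RBL2 in si-SRSF2 was 0.769 (0.706 to 0.837) times that in si-NC, and that of RB1 to RBL1 0.844 (0.741 to 0.961). The si-SRSF2 to si-NC ratio of RB1 was thus lower than that of both relatives by more than counting error, and the proportion of RB1 to RBL2 reads went from 1.07 to 0.823. LPAR6, which lies within RB1 on the other strand, had 0 counts in both libraries.

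E2F1 (ENSG00000101412.13, chromosome 20 from 33675477 to 33686385, minus strand), the factor that RB1 holds in check, had 930 counts with si-NC and 662 with si-SRSF2, which scaled to 46.7 and 45.6 CPM. The log2 ratio was -0.03 (-0.18 to 0.11), near the median of all genes tested. The reads of E2F1 per read of RB1 were 0.323 with si-NC and 0.408 with si-SRSF2, a ratio of 1.26 (1.12 to 1.42). E2F1 is also known as a target of E2F factors, and its upstream sequence is printed because its level can be set beside those of the E2F targets below. The 250 bases before its start site (RefSeq, GRCh38.p14, chr20:33686386-33686635, minus strand, written 5' to 3') hold 2 E2F motifs, in capitals:

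E2F1 upstream: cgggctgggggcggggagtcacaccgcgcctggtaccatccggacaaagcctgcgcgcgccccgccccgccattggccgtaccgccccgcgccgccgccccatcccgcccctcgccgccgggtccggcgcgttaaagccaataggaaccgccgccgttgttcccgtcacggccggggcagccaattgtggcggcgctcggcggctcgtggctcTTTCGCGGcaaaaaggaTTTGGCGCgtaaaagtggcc

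The motifs, TTTCGCGG and TTTGGCGC, start at positions -37 and -20 from the start site and do not overlap. The letters searched, on both strands, were TTTCGCGG, TTTGGCGC, TTTCGCGC, TTTGGCGG and TTTCCCGC. At least 1 of these 5 was in 3.16% of the 35116 upstream windows of RefSeq and at least 2 in 0.0968%. These shares describe the windows and do not test whether E2F1 is unusual, since the choice of the 5 may reflect known E2F sites. Of the 10 genes, 7 had a window in that table (CCND1, CCND2 and CDK2 did not), and 6 of these had one at the start of the canonical transcript. Among the 6, E2F1 alone held a match. This says only that these letters are not in those windows.

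**Figure D3:**
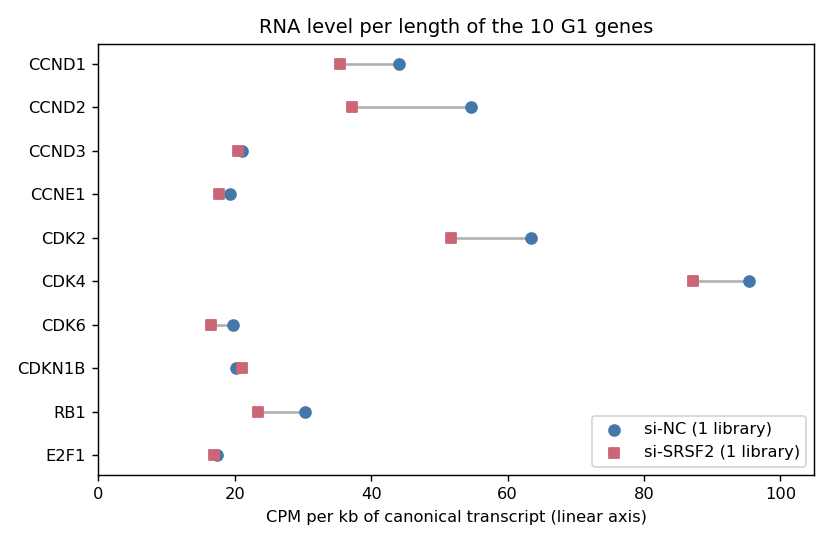
CPM per kb of canonical transcript (x axis, linear) of the 10 G1 genes in the si-NC library (circles) and the si-SRSF2 library (squares), joined by a line. CDK4 is highest, at 95.5 and 87.2 CPM per kb, and E2F1 lies among the lowest, at 17.3 and 17.0.

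Per length, the 10 genes spread in si-NC from 17.3 CPM per kb for E2F1 to 95.5 for CDK4. The order from the top was CDK4, CDK2 (63.4), CCND2 (54.6), CCND1 (44.1), RB1 (30.3), CCND3 (21.1), CDKN1B (20.1), CDK6 (19.7), CCNE1 (19.3) and E2F1. In si-SRSF2 the first 5 kept their places, at 87.2, 51.7, 37.2, 35.4 and 23.5 CPM per kb. CDKN1B (21.0) then stood above CCND3 (20.4), CCNE1 (17.7) and E2F1 (17.0) above CDK6 (16.4). The spread over replicates that would tell neighbours in this order apart is not known, and the order rests on the canonical lengths. The 5 genes from CCND3 down lay close together in si-NC, between 17.3 and 21.1 CPM per kb.

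**Figure D4:**
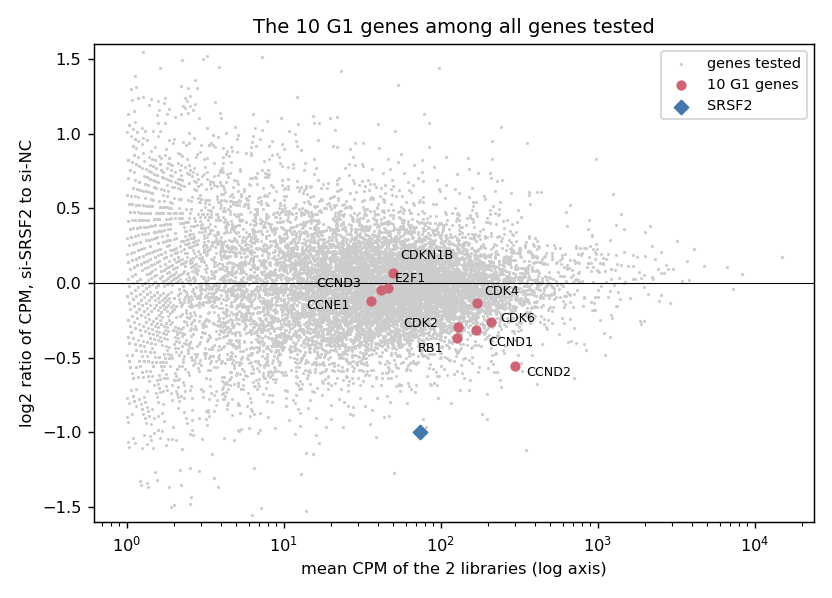
Log2 of CPM with si-SRSF2 over CPM with si-NC (y axis), against the mean CPM of the 2 libraries (x axis, log scale), for all 12620 genes tested (grey), the 10 G1 genes (red) and SRSF2 (diamond); 27 genes beyond 1.6 on either side are not shown. The 10 genes lie between 36.2 and 298 CPM, with CCND2 lowest of them at -0.55 and SRSF2 below it.

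The other genes of the pathway were taken from a list of 39 further G1 regulators, of which 35 passed the level of 1 CPM. Their median log2 ratio was -0.08. The interval lay wholly below 0 for 10 of the 35 and wholly above 0 for 6, beside 26.7% and 21.0% of all genes tested, so its members lay on both sides.

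CCNA2, which takes over CDK2 in S phase, had a log2 ratio of -0.31 (-0.41 to -0.21), beside the -0.41 of CCNE2. E2F5, a repressor type of E2F, had the lowest ratio of the list, from 471 counts to 213, or -0.67 (-0.93 to -0.45). On the high side were FBXW7, the ubiquitin ligase subunit that marks cyclin E for degradation, from 707 counts to 761 (0.56, 0.41 to 0.71), and E2F8, a repressor type of E2F, from 317 to 296 (0.35, 0.13 to 0.59). CDKN1A came next. CDK7, a kinase that activates other CDKs and is named here after its values were seen, had 56 and 79 counts and a log2 ratio of 0.84 (0.44 to 1.47). Without the added 0.5 CPM, its level in si-SRSF2 was 194% of that in si-NC.

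By role, these counts are again to be set beside the 26.7% below 0 and 21.0% above 0 of all genes tested, and the groups are small. The interval lay below 0 in 2 and above 0 in 2 of the 8 E2F and DP genes tested. Of the 5 genes of the MuvB core, which with RBL2 and E2F4 represses cell cycle genes, 1 lay below and 1 above. Of the 10 genes of cyclin and p27 turnover, 2 lay below and 1 above, and of the 4 CDK inhibitors tested 2 below and 1 above. CCNA1, CDKN1C, CDKN2A and E2F2 did not pass the level of 1 CPM. CCNA1 had 0 counts in both libraries, CDKN1C had 0 and 1, CDKN2A, which encodes the CDK4 inhibitor p16, had 4 and 6, and E2F2 had 9 and 5. Among the INK4 inhibitors of CDK4 and CDK6, CDKN2B, CDKN2C and CDKN2D passed it.

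The E2F targets, genes known to follow E2F activity, were a list of 26, all tested. Most act in DNA replication, chromatin assembly or nucleotide supply, and the list also holds the cyclins CCNE2 and CCNA2, the CDK phosphatase CDC25A and the transcription factor MYBL2. The interval lay wholly below 0 for 15 and wholly above 0 for 2, beside 26.7% and 21.0% of all genes tested and 34.5% and 25.4% of the genes of at least 36.2 CPM. The median log2 ratio was -0.14, and none of the 26 was 2-fold different. Of the 23 that are in no other list used here, 12 lay below 0 and 2 above, with a median of -0.13. Earlier results of these data on S phase genes were known when this list was written, so it is not independent of them.

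POLA1, the catalytic subunit of DNA polymerase alpha, was lowest among the targets, from 856 counts to 455, a log2 ratio of -0.45 (-0.62 to -0.29). MCM6, a subunit of the replicative helicase, followed CCNE2 with -0.39 (-0.49 to -0.29). At the other end, MCM3, another subunit of that helicase, had 0.11 (0.02 to 0.21), TYMS, which makes thymidylate, 0.11 (0.00 to 0.22) and PCNA, the sliding clamp, 0.07 (-0.00 to 0.14). Of the 6 subunits of the helicase, 4 had an interval below 0 (MCM2, MCM4, MCM6 and MCM7), MCM3 one above it and MCM5 one across it, beside 26.7% below and 21.0% above among all genes tested. This grouping was made after the values were seen.

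**Figure D5:**
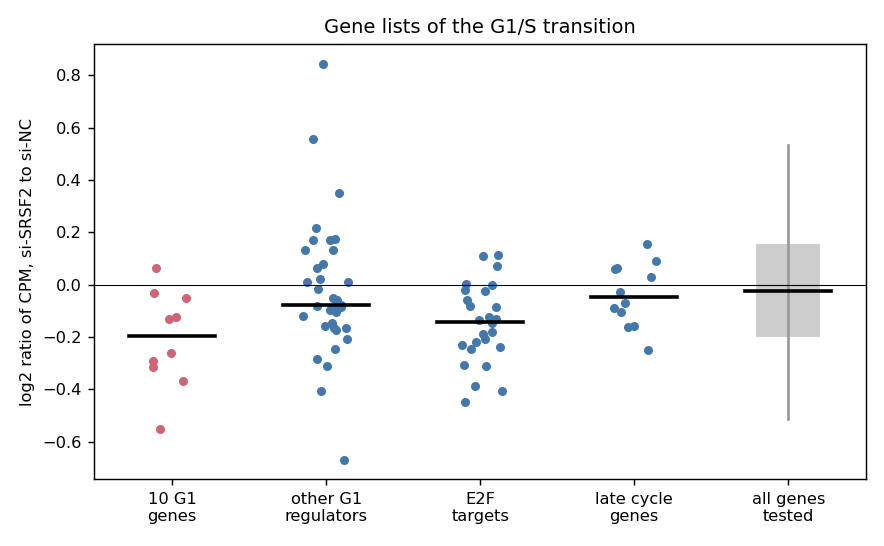
Log2 of CPM with si-SRSF2 over CPM with si-NC (y axis), of each tested gene (points) in 4 lists, with a thick line at the median of each; for all genes tested the box holds the 25th to 75th and the thin line the 5th to 95th percentile. The medians are -0.20, -0.08, -0.14 and -0.05 for the lists and -0.02 for all genes.

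Genes of G2 and mitosis were set beside them. Of 12, all tested, the interval lay below 0 for 5 and above 0 for 1, beside 26.7% and 21.0% of all genes tested, with a median log2 ratio of -0.05. All 12 were above 36.2 CPM, and of the 5990 genes at or above that level 34.5% lay below 0 and 25.4% above. CDK1, the mitotic kinase, was lowest at -0.25 (-0.33 to -0.17), and TOP2A and KIF11 both had -0.16. CCNB2, a partner of CDK1, was highest at 0.16 (0.03 to 0.29), followed by CCNB1 (0.09) and CDC20 (0.06). The intervals of CCNB1 and CDC20 crossed 0.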

How the data were processed

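RKO cells transfected with si-NC or si-SRSF2 gave 1 stranded poly(A) library each. After adaptor and quality trimming, the authors aligned the reads to GRCh38 (HISAT2 2.0.4 in the submitters' processing notes) and used HTSeq for counting. The deposited table used here holds counts by gene symbol without normalization. The strand mode of HTSeq is not given in the sources used here.

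The counts were scaled with edgeR 4.0.16 (TMM, R 4.3.3), and log2 ratios used a pseudocount of 0.5 CPM and a minimum mean of 1 CPM. Intervals (95% Clopper-Pearson, or conditional odds ratio for pairs) were computed in SciPy 1.17.1 and cover counting error only. Since each group had 1 library, no test was run. The calculations were tested on simulated data. Lengths, positions and 3' UTRs came from canonical transcripts of GENCODE release 44 (GRCh38), and start sites and upstream windows from RefSeq. Alternatives were DESeq2 1.42.0 size factors, other scalings, pseudocounts and filters. The 10 genes and all lists were chosen with earlier results of these data known. Named from each list were the 3 lowest and 3 highest ratios at a mean of at least 5 CPM, the genes of the pairs compared and the genes under 1 CPM. CDK7, CDKN2B, CDKN2C, CDKN2D, MCM2, MCM4, MCM5, MCM7, CDC25A, MYBL2, the overlapping genes and the further cyclins and CDKs were named outside this rule, after their values were seen. The result for 1 gene is left out.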

Additional observations from a re-analysis of the deposited data

How the results depend on the processing

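No paired analysis was possible because only 1 library stood for each group, and for the same reason no library could be left out in turn. Under size factors from DESeq2, library totals or upper quartiles, a pseudocount of 0.1 or 2 CPM, both other filters and leaving out mitochondrial and the 20 most abundant genes, the log2 ratios of SRSF2 and of the 10 G1 genes stayed inside their counting intervals and, of the 10, 6 had an interval below 0 and 0 above. The counting intervals do not use the pseudocount, and all 10 genes pass both other filters. Those settings therefore could not change the counts of 6 and 0. With upper quartiles the median of the 10 genes was -0.17 in place of -0.20, beside 23.7% of all genes tested below 0 and 23.9% above. Without the filter the shares of all genes were 16.1% and 13.7%, since 21953 genes, many of them with few counts, then entered, and at a mean of at least 5 CPM they were 29.9% and 21.9%. CCND2 ran from -0.55 to -0.53, RB1 from -0.37 to -0.34 and E2F1 from -0.03 to -0.01. The counts of all genes at least 2-fold lower and higher, 63 and 107, were 120 and 185 with a pseudocount of 0.1 CPM, 17 and 28 with one of 2 CPM, 109 and 239 without the filter and 16 and 26 at a mean of at least 5 CPM. The pseudocount acts on low counts and the filter sets which genes are counted, by construction. Shares of the D-type cyclin pool per kilobase in place of counts were 36.8% (CCND1), 45.6% (CCND2) and 17.6% (CCND3) in si-NC and 38.1%, 40.0% and 21.9% in si-SRSF2, since the transcripts differ in length. Depth limits CCND3, CCNE1, E2F1 and CDKN1B most, with 503 to 736 counts each in si-SRSF2.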

Other observations

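The remaining cyclins and CDKs, taken by symbol after the values had been seen, extend the account beyond G1. Of 17 further cyclins 16 were tested, and the interval of the log2 ratio lay below 0 for 3 and above 0 for 4, beside 26.7% and 21.0% of all genes tested, with a median of 0.02. CCNG1, a cyclin gene known as a p53 target, was highest of the 16, with 5545 counts under si-NC and 5478 under si-SRSF2, a log2 ratio of 0.44. CCNJ was lowest of the 16, from 904 to 496 (-0.40). CCNI2, the cyclin under 1 CPM, had 6 and 16 counts.

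Of 16 further CDKs 13 were tested, and the interval lay below 0 for 6 and above 0 for 4, beside the same 26.7% and 21.0%, with a median of -0.18. CDK19, a kinase of the Mediator complex, was lowest of the 13, from 463 counts to 217 (-0.62), while CDK8, its close relative, had 1032 and 745 (-0.01). CDK9, the elongation kinase, was highest of the 13, from 1699 to 1629 (0.39).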
